A study of Mus musculus with 3 samples.

Results

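Basement membranes are thin extracellular sheets on which epithelia rest, and the 10 genes described here encode most of their core: the laminin chains Lama1, Lama5, Lamb1 and Lamc1, the collagen IV chains Col4a1 and Col4a2, the nidogens Nid1 and Nid2, perlecan (Hspg2) and the matrix glycoprotein Sparc. They were taken by gene symbol, and each of the 10 matched 1 of the 32285 genes in the count matrices. Single-cell RNA-seq had been run on mouse blastoids, embryo-like structures grown from E14 embryonic stem cells that resemble the blastocyst, with 1 library for each of 3 kinds of sample titled Type I, Type II and Type III. The sources used here do not say what distinguishes the types, and the cell line and treatments were the same in each. The stem cells had been kept in serum and leukemia inhibitory factor with 10 µM T0901317, an agonist of liver X receptors such as the product of Nr1h2. Aggregates were then cultured with 12.5 ng/mL rhFGF4, 0.5 µg/mL heparin and 3 µM CHIR99021, with 2 µM Y-27632 on the first day and with 5 ng/mL BMP4 and 0.5 µM A83-01 afterwards. Blastoids were picked by hand on day 5 and digested for 30 min, so each library pools many blastoids of 1 parental line. No untreated embryonic stem cells or embryos were analysed here as controls.

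Laminins are trimers of an alpha, a beta and a gamma chain that polymerise on the cell surface through integrins and dystroglycan, and Lamb1 and Lamc1 are the beta and gamma chains that Lama1 or Lama5 can join. Col4a1 and Col4a2 assemble into collagen IV, which forms a covalent network beside the laminin network, and nidogens and perlecan bridge the networks. Sparc binds collagen and calcium and is a classical product of parietal endoderm. In the mouse embryo the primitive endoderm, the layer that lines the blastocoel side of the epiblast, lays down a laminin-rich basement membrane. Its parietal derivative makes Reichert's membrane, a very thick basement membrane, and its visceral derivative becomes an absorptive epithelium around the epiblast.

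Col4a1 and Col4a2 are read in opposite directions from a shared start region. In the GENCODE annotation of GRCm38, the build also named mm10, Col4a1 lies on the minus strand at chr8:11198423-11312826 and Col4a2 on the plus strand at chr8:11312805-11449287, so that 22 bases belong to both genes. The run below is printed on the plus strand from chr8:11312801-11312830, with the shared bases in capitals, because this pair is compared throughout.
Col4a1 and Col4a2: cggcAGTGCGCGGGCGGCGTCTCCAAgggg
The upstream stretches of 3 more members are shown because Lamb1 and Hspg2 were much higher in endoderm than in epiblast and Lama5 was the member that differed least. Capitals mark the letters GGGCGG, known as a GC box, or CCAAT on either strand. They lie at chr12:31265043-31265233 (plus strand) for Lamb1, chr4:137468553-137468768 (plus strand) for Hspg2 and chr2:180225860-180226109 (minus strand) for Lama5, in GRCm38.p6 from RefSeq.
Lamb1: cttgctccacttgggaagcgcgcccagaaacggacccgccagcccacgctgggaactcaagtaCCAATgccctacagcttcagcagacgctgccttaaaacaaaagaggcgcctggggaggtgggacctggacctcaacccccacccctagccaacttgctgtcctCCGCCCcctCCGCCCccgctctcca
Hspg2: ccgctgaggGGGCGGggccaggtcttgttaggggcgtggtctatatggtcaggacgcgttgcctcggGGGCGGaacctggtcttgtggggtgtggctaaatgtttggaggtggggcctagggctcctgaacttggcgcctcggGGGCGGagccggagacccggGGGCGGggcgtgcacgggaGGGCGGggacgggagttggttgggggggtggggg
Lama5: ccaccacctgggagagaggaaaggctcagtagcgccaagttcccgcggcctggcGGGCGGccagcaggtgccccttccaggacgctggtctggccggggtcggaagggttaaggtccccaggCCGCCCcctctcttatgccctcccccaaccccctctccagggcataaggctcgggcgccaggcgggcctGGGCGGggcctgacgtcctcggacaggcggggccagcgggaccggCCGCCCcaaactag
RefSeq start windows, reaching from 250 bases before to 50 bases after a start site, matched 7 of the 10 members, and Lama1, Lamc1 and Nid2 are named only. GGGCGG stood in 6 of the 7 windows on at least 1 strand, against 35.9% of 27025 windows of the same length. It was absent from the Sparc window, chr11:55420031-55420330, which lies wholly inside the GENCODE gene as placed below. CCAAT stood in 4 of the 7, against 37.9%. The GATA motif, GATAA or GATAG after an A or a T on either strand, stood in 0 of the 7, against 30.2%. The Col4a1 and Col4a2 windows overlap and so share letters, and these matches describe the letters and name no factor.

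The other members lie at chr17:67697259-67822647 (Lama1, plus strand), chr1:153218922-153332786 (Lamc1, minus), chr13:13437551-13512269 (Nid1, plus), chr14:19751265-19811787 (Nid2, plus) and chr11:55394500-55423183 (Sparc, minus). The 3' kit counts 1 end of each transcript, so a level is not divided by gene length. The 3' ends of Col4a1 and Nid2 overlap genes on the opposite strand, Gm15418 and Rtraf. In windows of 50 bases over the last 500 bases of each member's longest transcript, 0 of 451 windows were found in a transcript of another gene.

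The libraries held 6813, 9265 and 2310 barcodes, of which 1405, 1992 and 272 passed limits of 10000 UMIs or more and 20% mitochondrial UMIs or less. Of these 3669 deep barcodes, 3329 fell into 4 states by lineage genes that are not members. A summed level of Ttr, Rbp4, Apoa1 and Apoa2, here called the carrier sum, of at least 1000 counts per 1000000 (CPM) gave 443, 563 and 19 visceral endoderm barcodes. Of the rest, Gata6, Sox17 and Gata4 summed to at least 100 CPM in 271, 376 and 45 early primitive endoderm (PrE) barcodes. Krt8, Krt18 and Krt19 summed to at least 800 CPM in 208, 278 and 72 trophectoderm (TE) barcodes, and Pou5f1 reached 150 CPM in 351, 582 and 121 epiblast barcodes. The order of these rules decided the state of many barcodes. The keratin limit was also reached by 380, 494 and 18 visceral endoderm and 140, 182 and 15 early PrE barcodes. The Pou5f1 limit was also reached by 7, 14 and 0 visceral endoderm, 44, 66 and 17 early PrE and 15, 29 and 10 TE barcodes. All 8 visceral endoderm markers and all 6 primitive endoderm markers reached 10 CPM in visceral endoderm, all 8 epiblast markers did so in epiblast, and 6, 7 and 7 of 10 trophectoderm markers did so in TE. The 6 primitive endoderm markers summed to 1573, 1562 and 1776 CPM in early PrE and to 1637, 1786 and 2136 CPM in visceral endoderm, so they do not set early PrE apart from visceral endoderm, and the name early PrE rests on its rule. Early PrE held 7 of the 8 visceral endoderm markers at 10 CPM, with Afp, a later visceral endoderm gene, at 0.679, 0.834 and 0.223 CPM. The libraries shared barcode sequences: 155 between Types I and II, 209 between Types I and III and 151 between Types II and III. Shared sequences made up 4.32% and 1.45% of the barcodes in a state in Types I and II but 59.9% in Type III, which leaves 14 early PrE, 25 TE and 59 epiblast barcodes there. Of the barcodes in a state, 1, 1 and 0 were also deep in another library. The Type III barcodes left are shallower. Their median went from 80842 to 15309.5 UMIs in early PrE, from 81527 to 26629 in TE and from 59991 to 22505 in epiblast. Values without shared barcodes thus describe a small, shallow remainder of Type III. Of the 30 member levels of Type III in those 3 states, 13 moved by more than 1.5 times without the shared barcodes, against 0 of 30 in each other library, and these are given both ways. Divisions within a state, bins and correlations below use all barcodes.

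Expression of the set lay mainly in the endoderm states. In early PrE the 10 genes together made up 9634, 8487 and 8078 CPM in Types I, II and III. They made up 6942, 6703 and 6925 CPM in visceral endoderm, 590.4, 698 and 742 CPM in TE and 236, 257 and 199.5 CPM in epiblast, and the 4 states did not overlap between libraries. Type III without the shared barcodes had 6196 CPM in early PrE, which is below visceral endoderm in each library, 431 CPM in TE and 158 CPM in epiblast. States were compared on counts summed per library and state with edgeR's quasi-likelihood test and library as a block, calling a gene at an adjusted p under 0.05. There were 3 sums per state, except 2 for visceral endoderm, whose 19 barcodes in Type III fell below the minimum of 20. The libraries are different types and not repeats of 1 type, so a p measures whether a difference between states recurs across types. All 10 members were higher in early PrE than in epiblast, with a median log2 fold change of 3.99 against 0.03 over all genes. In that comparison 70.4% of the 14080 genes tested were called, 36.2% higher and 34.2% lower. All 10 were also higher in visceral endoderm than in epiblast, with a median of 3.03, where 74.2% of genes were called and 37.5% were higher. These comparisons share the epiblast sums.

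**Figure D1:**
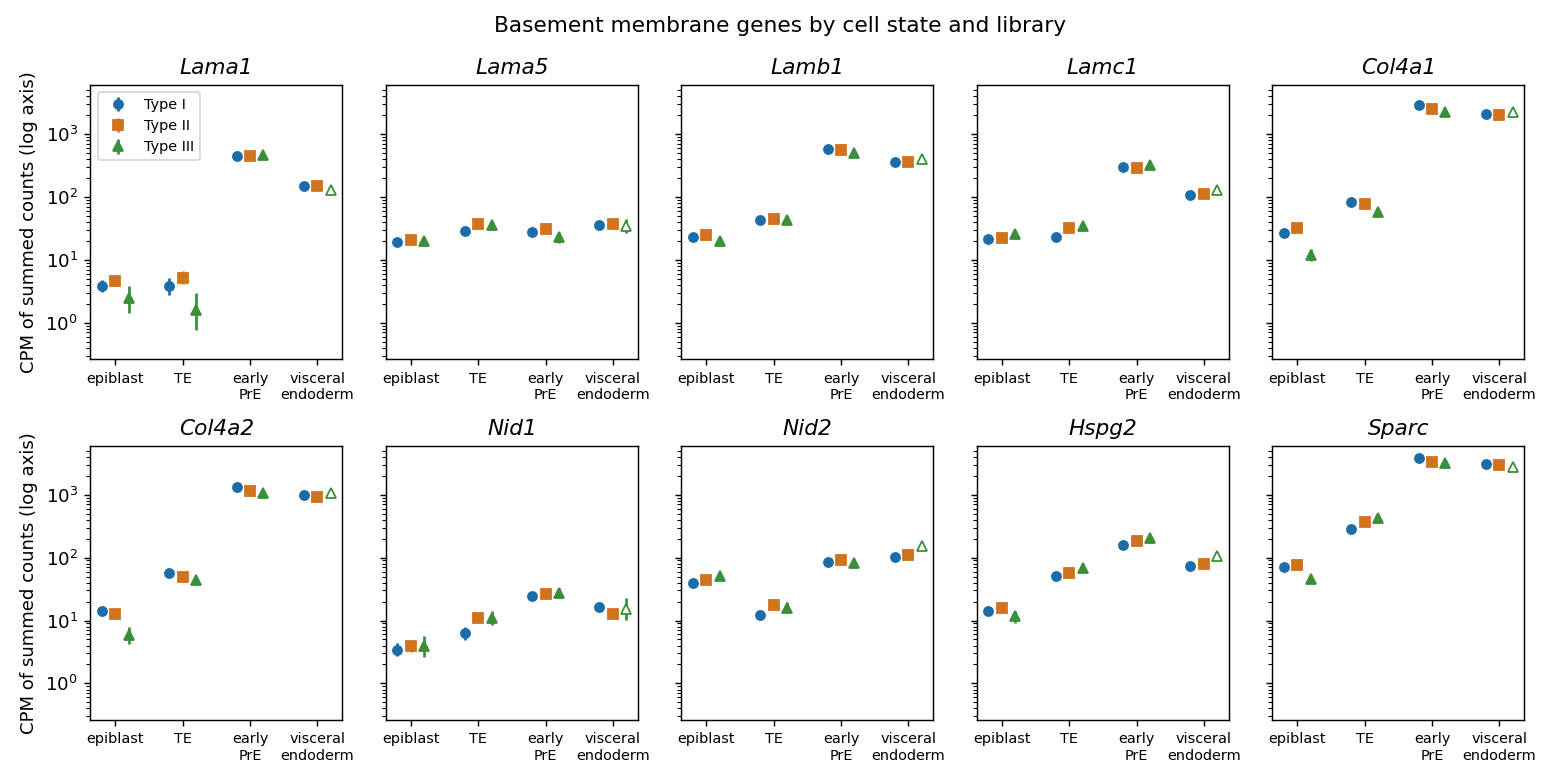
Level of each gene in CPM of summed counts (log axis) in 4 cell states, with 1 point per library and bars for exact 95% Poisson intervals, which cover counting error only; the open triangle marks the 19 barcodes of Type III visceral endoderm, which did not enter the tests. For 9 genes the endoderm states stand above TE and epiblast, whereas Lama5 stays between 18.9 and 37.3 CPM everywhere.

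Among the laminin chains, Lama1 had the widest range. Its level was 445, 443 and 457 CPM in early PrE and 147, 150.1 and 126 CPM in visceral endoderm. It was 3.80, 5.22 and 1.61 CPM in TE and 3.87, 4.65 and 2.42 CPM in epiblast. Early PrE thus averaged 448 ± 7.72 CPM (SD, n = 3), and visceral endoderm lay between it and the other states without overlap. The log2 fold change of early PrE over epiblast was 6.69 ± 0.16 (SE, adjusted p = 1.25e-12), but the epiblast and TE levels that it divides by were close to the level of free RNA given further on. With the shared barcodes left out, Type III Lama1 was 237 CPM in early PrE and 1.14 CPM in epiblast. Between TE and epiblast Lama1 was not called, at -0.35 ± 0.25 (adjusted p = 0.245), and it was called higher in TE when all limits of the states were doubled (0.96, adjusted p = 0.0435). Doubled limits let barcodes that were endoderm under the main limits pass to the TE rule, and their part was not tested.

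Lama5, the other alpha chain measured at more than a few CPM, behaved differently. Its level was 28.1, 31.0 and 22.7 CPM in early PrE, 35.4, 37.3 and 34.9 CPM in visceral endoderm, 28.2, 37.1 and 35.5 CPM in TE and 18.9, 20.5 and 19.7 CPM in epiblast. Epiblast was lowest in each library, visceral endoderm lay above early PrE without overlap, and TE overlapped both. Without the shared barcodes Type III Lama5 was 9.36 CPM in early PrE, from 3 UMIs in 14 barcodes, and 13.1 CPM in epiblast, so that epiblast was not the lowest there. It was then 57.1 CPM in the 5 visceral endoderm barcodes left. Early PrE over epiblast was 0.37 ± 0.098 on the log2 scale (adjusted p = 0.00445), a call that was lost without Type II (0.28, adjusted p = 0.159). Early PrE and TE were not told apart (-0.07 ± 0.098, adjusted p = 0.561), but Lama5 was called lower in early PrE with plain library totals (-0.26, adjusted p = 0.043) and with all limits halved (-0.39, adjusted p = 0.00127), and higher after thinning (0.45, adjusted p = 0.0247).

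The beta and gamma chains followed Lama1 with a smaller range. Lamb1 stood at 565, 546 and 501 CPM in early PrE, 352, 351 and 392 CPM in visceral endoderm, 42.1, 44.2 and 43.4 CPM in TE and 23.3, 24.5 and 19.7 CPM in epiblast. Each state was separate from the next, and Lamb1 was 21.4-fold higher in early PrE than in epiblast (log2 4.42 ± 0.067, adjusted p = 5.84e-14). Lamc1 stood at 302, 286 and 321 CPM in early PrE and 108, 111 and 128 CPM in visceral endoderm. In TE it was 23.1, 32.5 and 34.0 CPM and in epiblast 21.6, 22.5 and 26.1 CPM. Those last states overlapped and were not called apart (0.019 ± 0.098, adjusted p = 0.885), while early PrE was 11.8-fold above epiblast (log2 3.56 ± 0.09, adjusted p = 1.75e-12). Type III Lamc1 was 190.4 CPM in early PrE and 13.6 CPM in epiblast without the shared barcodes. Of 7 further laminin chains, Lamb2, a second beta chain, was the one called in endoderm with at least 20 CPM, at 26.1, 24.9 and 22.7 CPM in early PrE against 3.05, 3.08 and 3.77 CPM in epiblast (log2 2.82 ± 0.12).

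The collagen IV chains and Sparc were the most abundant members. Col4a1 was counted at 2904, 2461 and 2238 CPM in early PrE and at 2089, 2019.5 and 2194 CPM in visceral endoderm. In TE it was 82.0, 77.7 and 58.1 CPM, and in epiblast 27.0, 31.9 and 11.98 CPM. Col4a2 was counted at 1321, 1156 and 1046 CPM in early PrE, 995, 912 and 1070.2 CPM in visceral endoderm, 57.1, 49.5 and 44.0 CPM in TE and 14.2, 12.6 and 5.92 CPM in epiblast. The endoderm states overlapped for Col4a2, and TE lay above epiblast in every library for both chains. Early PrE exceeded epiblast by 6.58 ± 0.16 (Col4a1) and 6.54 ± 0.12 (Col4a2) on the log2 scale, with adjusted p of 1.42e-12 and 2.42e-13. Here too the epiblast level was close to that of free RNA. Col4a1 in Type III TE was 24.9 CPM without the shared barcodes. Of the 4 other collagen IV chains, Col4a5 was the one with enough counts to be tested, and it was 2.85, 2.10 and 1.61 CPM in TE against 0.662, 0.375 and 0.269 CPM in epiblast (log2 1.99).

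Sparc stood at 3799, 3267 and 3178 CPM in early PrE and at 3023, 2921 and 2709 CPM in visceral endoderm. TE held 285, 366 and 430.4 CPM and epiblast 70.3, 75.9 and 46.5 CPM, so that each of these lower states was separate from the other. Early PrE was 47.4-fold above epiblast (log2 5.57 ± 0.17, adjusted p = 7.35e-12). Without the shared barcodes Type III Sparc was 2098 CPM in early PrE, 176 CPM in TE and 44.4 CPM in epiblast. Its 5 remaining visceral endoderm barcodes had 2611 CPM, above early PrE, whereas early PrE was the higher of the endoderm states with all barcodes.

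The linkers were less abundant. Hspg2 was 161, 181 and 206 CPM in early PrE, 72.6, 79.0 and 105 CPM in visceral endoderm, 50.8, 57.4 and 68.1 CPM in TE and 14.2, 15.9 and 11.6 CPM in epiblast. The states did not overlap, although without the shared barcodes Type III TE was at 80.2 CPM, and early PrE was 11.3-fold above epiblast (log2 3.50 ± 0.10, adjusted p = 4.16e-12). Nid1 was 24.1, 26.8 and 27.4 CPM in early PrE, 16.5, 12.5 and 15.5 CPM in visceral endoderm, 6.27, 11.1 and 11.1 CPM in TE and 3.46, 3.90 and 3.90 CPM in epiblast. Early PrE exceeded epiblast by 2.64 ± 0.18 on the log2 scale (adjusted p = 1.64e-08). Nid2 had another order: 103, 108 and 151 CPM in visceral endoderm, 86.2, 90.0 and 80.8 CPM in early PrE, 39.4, 44.4 and 51.8 CPM in epiblast and 12.1, 17.7 and 16.1 CPM in TE. Nid2 was lower in TE than in epiblast by 1.88 on the log2 scale (-1.88 ± 0.11, adjusted p = 1.27e-08), the reverse of Nid1, which was higher there by 0.98 ± 0.21 (adjusted p = 0.00121). Without the shared barcodes Type III Nid2 was 32.4 CPM in epiblast and 8.29 CPM in TE, and Nid1 was 24.9 CPM in TE.

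**Figure D2:**
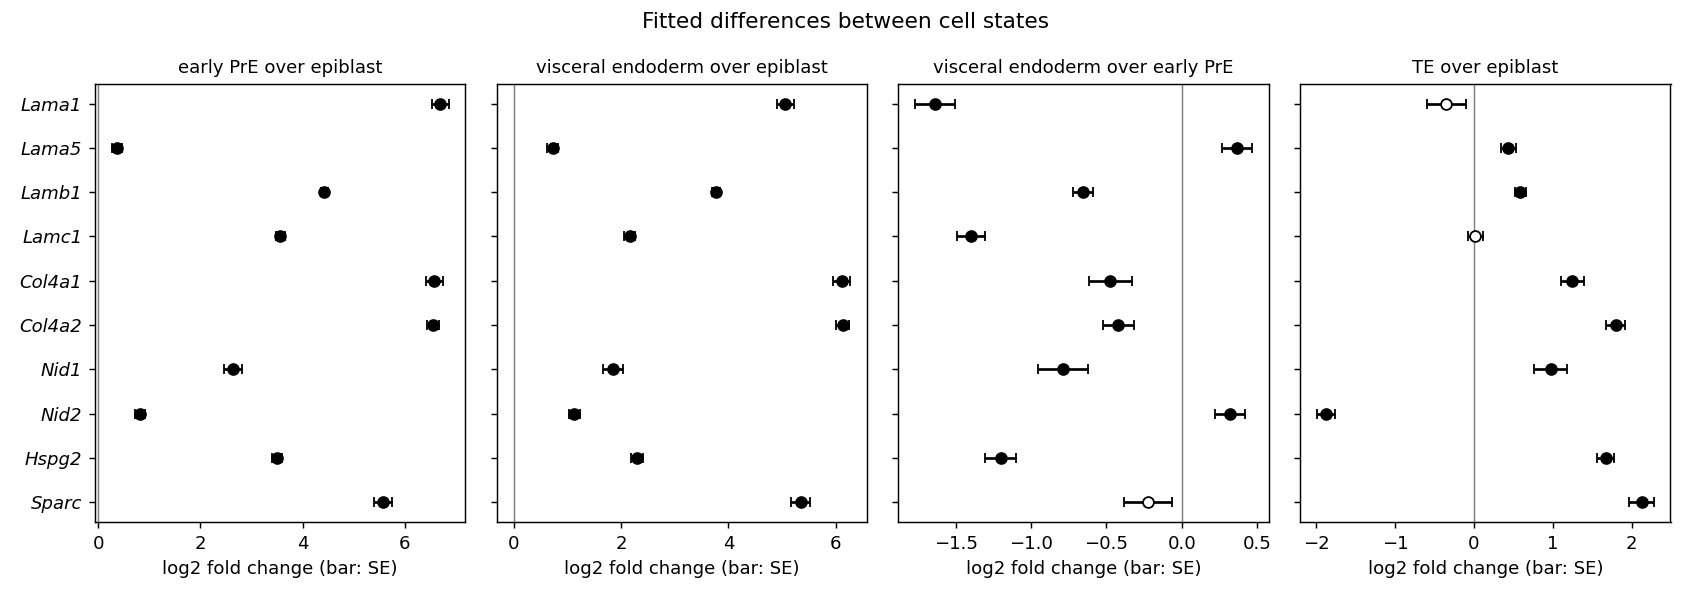
Fitted log2 fold changes of the 10 genes in 4 comparisons of cell states, with bars for 1 SE; filled points passed an adjusted p of 0.05 in edgeR's quasi-likelihood test. All 10 points lie right of 0 for both endoderm states over epiblast, 7 called points lie left of 0 for visceral endoderm over early PrE, and Nid2 is the called point left of 0 for TE over epiblast.

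Between the endoderm states, Lama1, Lamb1, Lamc1 and perlecan were called lower in visceral endoderm than in early PrE. In visceral endoderm against early PrE, 7 members were lower and 2 higher, where 19.8% of genes were called, 9.41% lower and 10.4% higher. The differences were -1.64 ± 0.13 for Lama1 (adjusted p = 2.59e-06), -1.40 ± 0.092 for Lamc1 (3.96e-07) and -1.20 ± 0.10 for Hspg2 (3.40e-06) on the log2 scale. They were smaller for Nid1 (-0.79), Lamb1 (-0.66), Col4a1 (-0.47) and Col4a2 (-0.42). Lama5 (0.36 ± 0.10, adjusted p = 0.0212) and Nid2 (0.32 ± 0.10, adjusted p = 0.0399) were higher, and Sparc was not called (-0.23 ± 0.16, adjusted p = 0.363). Lama1, Lamb1, Lamc1 and Hspg2 were called in the same direction without any 1 library, but the calls of Lama5, Nid2, Col4a1 and Col4a2 were lost without Type I and without Type II, and that of Nid1 without Type II. Each of those fits has 1 visceral endoderm sum, which is assumed to vary like the other sums. With the 19 Type III barcodes added, Col4a1 (adjusted p = 0.242) and Col4a2 (adjusted p = 0.17) were not called, DESeq2 did not call Col4a1 (adjusted p = 0.179) or Nid2 (adjusted p = 0.0664), and without the library block 5 members were called. The Col4a1 and Col4a2 differences turned to 0.13 and 0.12, not called, when all 4 limits of the states were halved.

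The carrier sum of an endoderm barcode runs over a wide range, and 192, 231 and 11 deep barcodes lay between 500 and 2000 CPM, within a factor of 2 of the limit. Endoderm barcodes were therefore put into 7 bins of the carrier sum, and Type III, with 2 to 18 barcodes a bin, rests on few barcodes. Below the limit of 1000 CPM a barcode enters a bin only if Gata6, Sox17 and Gata4 sum to at least 100 CPM. Above it no such condition applies, so the levels on either side come from differently chosen barcodes. Lama1 was 445, 560.4, 481 and 363 CPM in the 4 bins of Type I below 1000 CPM and 206, 124 and 42.0 CPM in the 3 bins above it. In Type II it was 409, 424, 541 and 413 CPM and then 219, 122 and 55.3 CPM. In Type III it was 479, 428, 422 and 464 CPM and then 163, 129 and 27.1 CPM. Lama1 was thus lower just above the limit than just below it in each library and went down further above it, while below it the bins of Types II and III showed no steady fall. The part of the condition on Gata6, Sox17 and Gata4 in the step at the limit was not tested. In Types I and II, Lamc1 went from 264 and 259 CPM in the bin just below the limit to 156 and 161 CPM just above it, and to 41.5 and 43.4 CPM in the highest bin. Hspg2 was already lower towards the limit in Type I, with 243, 203, 144 and 120 CPM in the 4 bins there, but in Type II it was 199, 196, 216 and 138 CPM and in Type III 204, 257, 156 and 171 CPM.

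Col4a1 peaked towards the middle of the range instead. In Type I it was 2433 CPM in the lowest bin, 3273 CPM at 300 to 1000 CPM of carrier genes and 1082 CPM in the highest bin, and in Type II it was 1817, 2767 and 1117 CPM in the same bins. Lama5 went from 17.3 and 14.7 CPM in the lowest bin to 39.6 and 43.7 CPM at 1000 to 3000 CPM. Nid2 went from 69.2 and 62.1 CPM to 110.3 and 114 CPM over the same bins. Gata6, an endoderm regulator that helps to define early PrE, went from 188 and 192 CPM in the lowest bin to 48.0 and 47.3 CPM in the highest. The rule asks for Gata6, Sox17 and Gata4 only below the limit, so a higher Gata6 there is built in and is no separate result. Pou5f1, the epiblast gene, was at 131 and 145 CPM in the lowest bin and at 12.1 and 27.9 CPM at 1000 to 3000 CPM. Without the endoderm and TE barcodes that had at least 150 CPM of Pou5f1, 7 members were called between the endoderm states, and the calls of Lama5 (adjusted p = 0.0938) and Nid2 (adjusted p = 0.16) were lost.

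**Figure D3:**
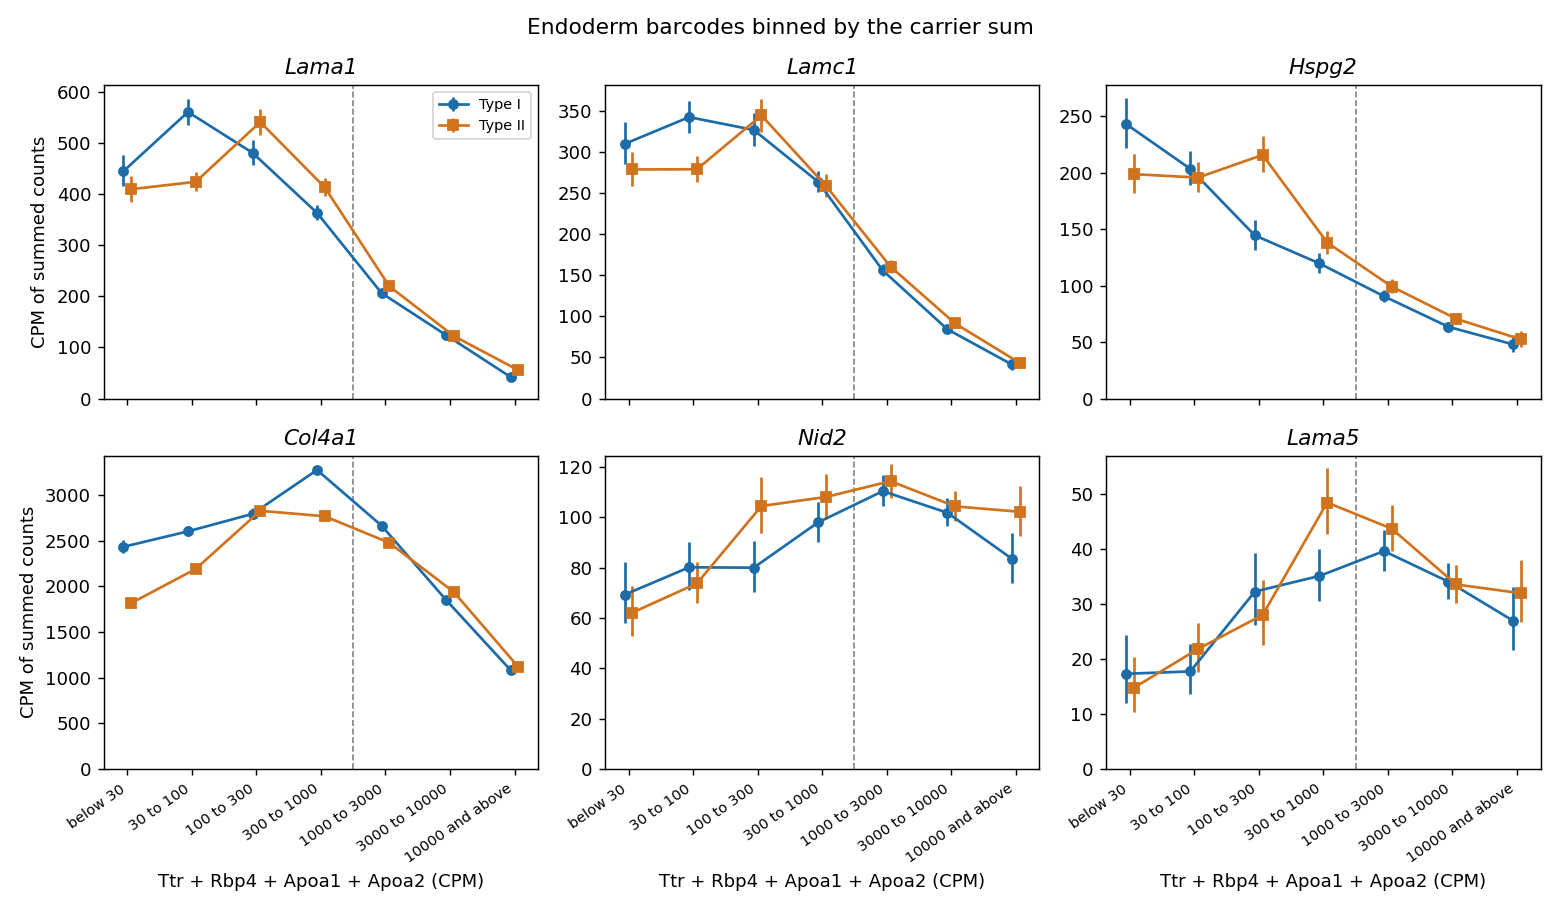
Level in CPM of summed counts (bars: exact 95% Poisson intervals, counting error only) of 6 genes in early PrE and visceral endoderm barcodes of Types I and II, binned by the summed CPM of Ttr, Rbp4, Apoa1 and Apoa2; the dashed line is the limit between the states. Lama1, Lamc1 and Hspg2 go down across the limit, Col4a1 peaks below it, and Lama5 and Nid2 are lowest in the lowest bins. Barcodes below the limit also had to reach 100 CPM of Gata6, Sox17 and Gata4 together, and those above it did not.

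TE and epiblast, the states with little basement membrane RNA, still differed from each other. In TE 7 members were higher than in epiblast and 1 was lower, where 58.6% of genes were called, 27.4% higher and 31.1% lower. Of the higher members Sparc (2.13 ± 0.15), Col4a2 (1.80 ± 0.12), Hspg2 (1.67 ± 0.10) and Col4a1 (1.25 ± 0.15) had the largest log2 differences, and the lower one, Nid2 (-1.88 ± 0.11), was second in size to Sparc, while Nid1 (0.98 ± 0.21), Lamb1 (0.59 ± 0.069) and Lama5 (0.44 ± 0.097) had smaller ones. Apob, used further on to gauge free RNA, was 9.50, 9.51 and 0.964 CPM in TE and 4.63, 8.63 and 0.808 CPM in epiblast. The part of free RNA in the collagen IV differences was not tested. Scaling mattered in this comparison: TMM moved the median gene by -0.34 on the log2 scale relative to plain library totals, and by -0.15, -0.12, 0.02, 0.19 and 0.22 in the others. With plain totals Lamc1 was also higher in TE (0.35, adjusted p = 0.00797), and the sign of the other 9 members was the same. Early PrE exceeded TE in 9 members, with Lama5 not called, where 59.1% of genes were called and 31.1% were higher. Visceral endoderm exceeded TE in 10 members, where 63.7% were called and 33.1% were higher. The call of Lama5 among them (0.29 ± 0.10, adjusted p = 0.0213) was lost in 7 alternatives, DESeq2 (adjusted p = 0.115), plain totals (0.4) and leaving out Type I (0.42) or Type II (0.133) among them, and its levels were 37.3 against 37.1 CPM in Type II and 34.9 against 35.5 CPM in Type III. Without Type I the call of Nid1 was lost too (adjusted p = 0.107).

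The balance between paired chains also differed between states. Lama1 made up 94.1%, 93.5% and 95.3% of the Lama1 and Lama5 UMIs in early PrE and 80.6%, 80.1% and 78.4% in visceral endoderm. In TE it made up 11.9%, 12.3% and 4.33%, and in epiblast 17.0%, 18.5% and 10.98%. Lama1 in TE and epiblast was close to the level of free RNA given further on. The part of free RNA in these shares was not tested. The exact binomial 95% intervals of early PrE and visceral endoderm, 93.5 to 94.6% against 79.5 to 81.7% in Type I, did not meet in any library. Nid1 made up 21.9%, 23.0% and 25.3% of the nidogen UMIs in early PrE, 13.8%, 10.4% and 9.31% in visceral endoderm, 34.2%, 38.5% and 40.8% in TE and 8.08%, 8.08% and 7.005% in epiblast. Without the shared barcodes, Type III TE had 0 of 18 UMIs from Lama1 (exact upper bound 18.5%) and 18 of 24 nidogen UMIs, 75.0% (53.3 to 90.2%), from Nid1.

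Col4a1 and Col4a2, by contrast, had similar shares in both endoderm states. Col4a1 made up 68.7%, 68.0% and 68.1% of the pair in early PrE and 67.7%, 68.9% and 67.2% in visceral endoderm, although both levels were far above epiblast there. In TE the share was 58.9%, 61.1% and 56.9%, below both endoderm states in each library. In epiblast it was 65.6%, 71.6% and 66.9%, from 808, 1188 and 133 UMIs, with both chains close to the level of free RNA given further on. The part of free RNA in the epiblast share was not tested. In Type III the Col4a1 share was 62.1% in early PrE and 43.9% in TE without the shared barcodes, from 956 and 41 UMIs. The pair also moved together from barcode to barcode, with a Pearson correlation of log2(CPM + 10) over 271, 376 and 45 early PrE barcodes of 0.95, 0.93 and 0.92. For Lama1 and Lamc1 it was 0.82, 0.81 and 0.75, for Lama1 and Col4a1 0.78, 0.83 and 0.76, and for Lama1 and Lama5 0.11, 0.21 and 0.32. Lama5 had a UMI in 60.5%, 56.6% and 60.0% of the early PrE barcodes without thinning. The part of its low counts in its lower correlation was not tested. These barcodes share a library and a depth scaling, and the correlations are given as descriptions.

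**Figure D4:**
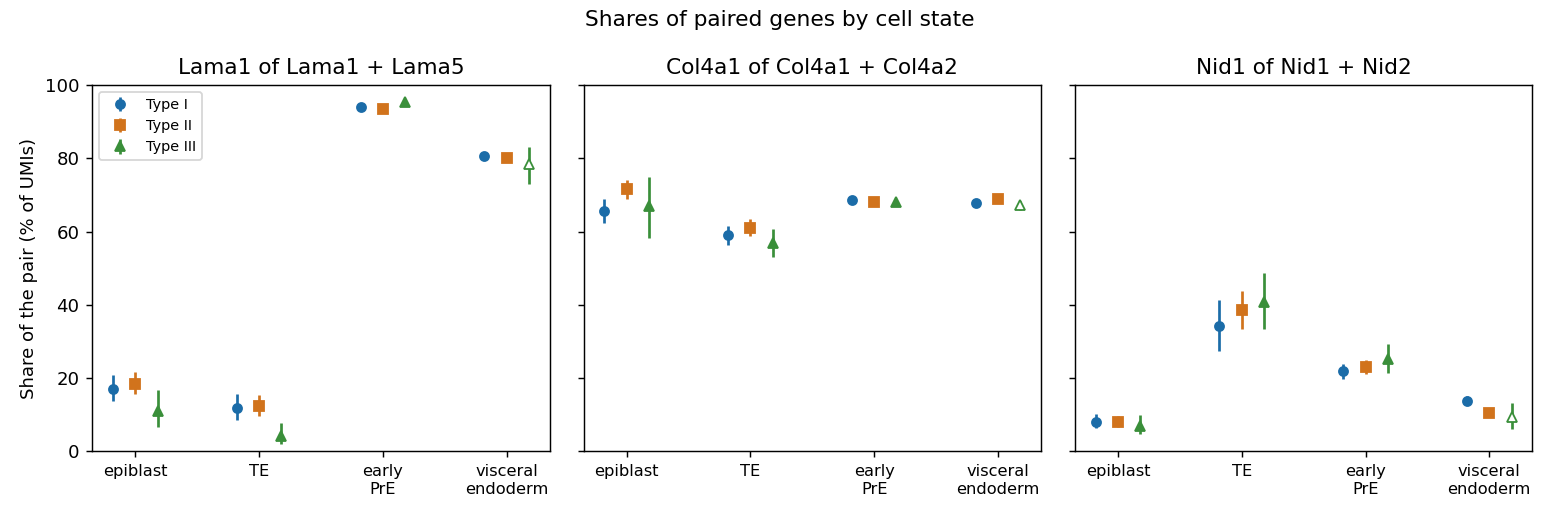
Share of the UMIs of a pair that belongs to its first gene, in percent, by cell state, with 1 point per library and bars for exact 95% binomial intervals (counting error only); the open triangle is the 19 barcodes of Type III visceral endoderm. The Lama1 share runs from 4.33% to 95.3%, the Col4a1 share stays between 56.9% and 71.6%, and the Nid1 share is highest in TE. Lama1 in TE and epiblast, and both collagen IV chains in epiblast, were close to the level of free RNA.

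Epiblast and TE barcodes were divided further by genes that are not members, giving ranges of a score and not cell types. Epiblast barcodes in which Otx2, Pou3f1 and Fgf5 together reached the level of the naive genes Zfp42, Klf2, Esrrb and Nanog, called the primed side, numbered 46, 97 and 9. On the primed side Lama5 was 38.0, 34.9 and 42.5 CPM, against 16.1, 17.7 and 17.7 CPM on the naive side, and the intervals did not meet in any library. Lamb1 was 31.2, 37.4 and 30.6 CPM against 22.2, 22.0 and 18.7 CPM. Nid2 was 31.6, 34.6 and 42.5 CPM against 40.5, 46.3 and 52.6 CPM, lower on the primed side in each library with intervals that meet in Types I and III. Of the primed barcodes, 29, 66 and 8 lay within 2-fold of the division.

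TE barcodes were divided by whether Rhox6 and Rhox9, homeobox genes of trophoblast, reached the level of Krt19, Sfn and Anxa1. Sparc was 342, 413 and 479 CPM on the Krt19 side (125, 198 and 57 barcodes) and 176, 229 and 147 CPM on the Rhox side (83, 80 and 15 barcodes). Nid1 differed the other way in Types II and III, at 6.18 and 8.85 CPM on the Krt19 side against 25.3 and 24.0 CPM on the Rhox side, and was 5.96 against 6.86 CPM in Type I. Lama1 in Type I was 1.74 CPM on the Krt19 side and 7.68 CPM on the Rhox side, where Apob, used here to gauge free RNA, moved with it at 5.23 and 17.6 CPM; its part in the result was not tested.

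**Figure D5:**
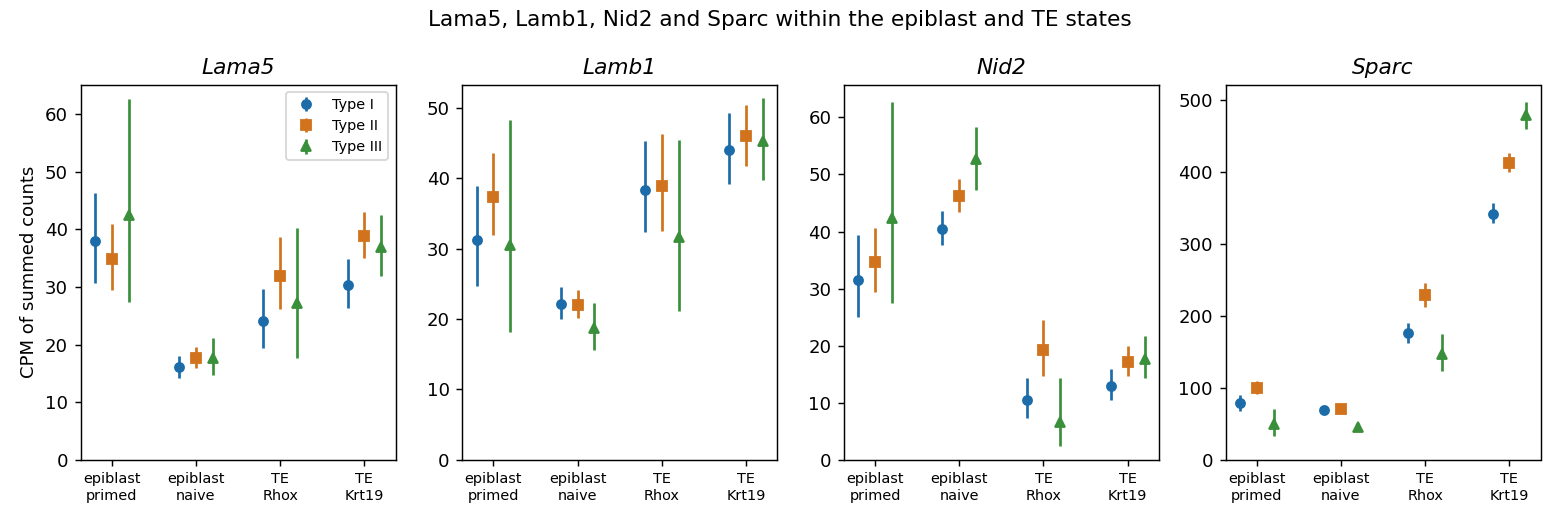
Level of Lama5, Lamb1, Nid2 and Sparc in CPM of summed counts on each side of a division of the epiblast and TE states, with 1 point per library and bars for exact 95% Poisson intervals (counting error only). Lama5 is about 2-fold higher on the primed than on the naive side of epiblast, and Sparc is higher on the Krt19 than on the Rhox side of TE.

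Droplets take up free RNA, so low levels were set beside Apob, an apolipoprotein of visceral endoderm. Apob in epiblast was 1.54% of its level in the whole Type I library. Scaled by the Apob percentage in each library, Lama1 in epiblast was at 1.90 times the level that free RNA in the proportions of the library would give in Type I and at 3.59 times in Type III, with Type II below both. Col4a1 was at 1.41, 1.24 and 2.81 times it and Col4a2 at 1.57, 1.07 and 2.83 times. Sparc was at 2.62, 2.10 and 7.31 times it in epiblast and at 5.18, 9.21 and 56.8 times in TE. In TE Lama1 was at 0.912, 1.53 and 1.99 times it, Col4a1 at 2.08, 2.74 and 11.4 times and Col4a2 at 3.09, 3.79 and 17.6 times. Lama5 in epiblast was at 43.1, 26.6 and 107 times it and Nid2 at 40.0, 26.4 and 139 times. The folds of Lama1 and collagen IV over epiblast therefore divide by levels near this background, that of Sparc divides by a level within 3 times of it in Types I and II, and those of Lama5 and Nid2 divide by levels well above it.

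After thinning each barcode to 10000 UMIs, 80.4%, 81.1% and 68.9% of early PrE barcodes had a Lama1 UMI, against 59.4%, 58.8% and 63.2% of visceral endoderm barcodes. The Apob share in epiblast, a state that should lack it, was 5.98%, 7.22% and 0.826%, and Lama1 there was 3.70%, 3.95% and 4.96%, below it in Types I and II. Before thinning, the median depths were 49842, 37918 and 80842 UMIs in early PrE and 57747, 46588 and 59991 UMIs in epiblast. Nid2 had a UMI in 34.5%, 34.5% and 32.2% of epiblast barcodes and in 6.73%, 11.51% and 5.56% of TE barcodes. Nearly all visceral endoderm barcodes, 99.8%, 99.8% and 94.7%, had a Col4a1 UMI.

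The machinery that modifies and exports collagen was higher in the same states. Of 16 such genes, 15 were higher and 0 lower in early PrE than in epiblast, with a median log2 fold change of 1.41. In that comparison 36.2% of all genes were higher and 34.2% lower. Serpinh1, the collagen chaperone, was 739.6, 729.8 and 784 CPM against 48.6, 48.0 and 33.5 CPM (log2 3.94 ± 0.10). P4ha1, a prolyl hydroxylase subunit, differed by 3.16 ± 0.12 and Plod2, a lysyl hydroxylase, by 2.84 ± 0.095. Sec24d, a coat subunit of vesicles that leave the endoplasmic reticulum, differed by 2.00 ± 0.12. Between the endoderm states 13 of the 16 were not called, near the share over all genes, of which 19.8% were called. P4ha2, another prolyl hydroxylase subunit, was lower in visceral endoderm by 1.54 on the log2 scale (-1.54 ± 0.15). In TE against epiblast the same list had 3 higher and 5 lower, where 27.4% of all genes were higher and 31.1% lower. Serpinh1 was higher in TE by 1.75 ± 0.10.

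Of 13 tested genes for crosslinking and remodelling, 9 were higher and 2 lower in early PrE than in epiblast, with a median of 1.97. Over all genes 36.2% were higher and 34.2% lower. Htra1, a secreted serine protease, was 52.7, 85.6 and 121 CPM in early PrE against 5.45, 8.82 and 8.58 CPM in visceral endoderm (log2 -3.34 ± 0.19), a larger difference between the endoderm states than that of any of the 10 members. Pxdn, the peroxidase that crosslinks collagen IV, was 36.8, 36.2 and 22.0 CPM in early PrE and 49.9, 50.4 and 46.9 CPM in visceral endoderm (0.53 ± 0.12). Loxl2, an oxidase that acts on collagen, and Timp3, an inhibitor of metalloproteinases, were higher in early PrE than in epiblast by 2.66 ± 0.18 and 3.93 ± 0.15.

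Other basement membrane genes were split. Of 11 tested, 6 were higher and 3 lower in early PrE than in epiblast, where 36.2% of all genes were higher and 34.2% lower. In visceral endoderm against early PrE 7 were higher and 0 lower, where 10.4% of all genes were higher and 9.41% lower. Fn1, fibronectin, was 169, 172 and 195 CPM in visceral endoderm against 75.1, 69.8 and 87.3 CPM in early PrE (1.19 ± 0.11), and Fbln1, a fibulin, differed by 1.34 ± 0.16. Agrn, the heparan sulfate proteoglycan agrin, was higher in visceral endoderm too (0.35 ± 0.09), whereas perlecan was lower. Col18a1 was lower in early PrE than in epiblast, at 18.1, 21.2 and 20.3 CPM against 90.9, 96.6 and 71.9 CPM (-2.31 ± 0.091).

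Receptors also went both ways, with 7 of 13 higher and 6 lower in early PrE than in epiblast and a median of 0.35. So did all genes in that comparison, with 36.2% higher and 34.2% lower. Itga5, the fibronectin receptor subunit, was higher by 2.54 ± 0.11 and Itga3, a laminin receptor subunit, by 1.48 ± 0.18. Itga6, another laminin receptor subunit, was lower (-0.84 ± 0.094) and was highest in TE, at 65.2, 70.5 and 80.9 CPM. Dag1, dystroglycan, and Bcam, a receptor for laminins with the Lama5 chain, were also higher in TE than in epiblast, by 0.94 ± 0.066 and 1.19 ± 0.13.

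Of 5 tested genes of parietal endoderm, 4 were higher and 1 lower in early PrE than in epiblast. Over all genes 36.2% were higher and 34.2% lower. Srgn, a secretory granule proteoglycan, was 732, 817 and 970.2 CPM in early PrE and 348, 438 and 585 CPM in visceral endoderm (log2 -1.12 ± 0.21 between them). Pth1r, a receptor for parathyroid hormone-related peptide, was 218, 171 and 166 CPM in early PrE and 159, 159 and 136 CPM in visceral endoderm. Thbd, a defining gene of parietal endoderm, was at 0, 0.128 and 0 CPM in early PrE. Summed, the 6 listed genes were at 994, 1029 and 1170 CPM in early PrE and at 544, 635 and 758 CPM in visceral endoderm, and their part in the higher Lama1, Lamc1 and Hspg2 of early PrE was not tested. In Type III early PrE, Kdr and Cdh5, genes of endothelium, were at 17.4 and 15.1 CPM, against 1.49 to 3.01 CPM in the other libraries. These levels rest on 45 barcodes, of which 14 had no shared sequence, and which barcodes carry the RNA was not tested.

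Across the 11 sums, the genes most like the mean profile of the members were Dnajc3 (Pearson correlation 0.996), Retreg1, Cystm1, Nagk, Itm2b, Ank, Hs3st1 and Dap, down to 0.991. Dnajc3, a chaperone of the endoplasmic reticulum, averaged 95.9 CPM in early PrE, 92.3 in visceral endoderm, 34.1 in TE and 23.2 in epiblast. Of the members, Lamb1 lay closest to the mean profile at 0.993, and Nid2 and Lama5 lay farthest at 0.663 and 0.518.

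Libraries were compared within a state by size alone, since each type has 1 library. In 100 comparisons of a member between libraries, 0 reached a 2-fold difference where the higher library had 50 CPM or more. With all limits of the states doubled 4 of 100 did, all in TE: Col4a1 was 63.2 CPM in Type III against 199 and 182 CPM in Types I and II, and Col4a2 was 47.8 against 109.7 and 104.6 CPM. Under the main limits TE Col4a1 was 82.0 and 77.7 CPM in Types I and II. Doubled limits let barcodes that were endoderm under the main limits pass to the TE rule, and their part was not tested. Without the shared barcodes 3 of 80 comparisons reached a 2-fold difference at that level, all in TE of Type III. Col4a1 was then 24.9 CPM in Type III against 84.3 and 81.9 CPM in Types I and II, and Sparc was 176 against 359.7 CPM in Type II. The counts of members called were the same with and without the shared barcodes in all 6 comparisons. Type III early PrE, with 14 barcodes left, was then below the minimum for a sum and did not enter the fit. Type III visceral endoderm did not enter it in either case. For comparisons with an endoderm state, the unchanged counts therefore describe the endoderm of Types I and II. They cannot test that of Type III, which has no endoderm sum there.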

How the data were processed

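The authors deposited UMI counts per gene and barcode. Per the file headers they come from Cell Ranger 6.0.1; the build, mm10, is named in the submitters' processing notes and the 3' kit, v3.1, in the labels. The sources used here do not say how barcodes were called. Total counts were 90126648, 106445641 and 25443474 in Types I, II and III. The members, gene lists, state limits and tests were chosen with earlier results of these data known. Counts were summed per library and state (at least 20 barcodes) and fitted in 1 model over 11 sums with edgeR 4.0.16 (TMM, library block, quasi-likelihood test, Benjamini-Hochberg over 14080 genes). The test was also tried on simulated counts drawn with the dispersion of the main fit, and the outcome is not given here. DESeq2 1.42.0 and other alternatives are in the closing section. CPM divides by the total of the summed barcodes. Doublets were not removed. Each list names up to 4 called genes per comparison with at least 20 CPM and the largest change; further genes named, such as Col4a5, Thbd, Kdr and Cdh5, were chosen after their values were seen. Likeness used 11 sums where 12 had been planned. Intervals cover counting error only.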

Additional observations from a re-analysis of the deposited data

Results flagged for a closer look

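Barcodes outside the 4 states also held RNA of the 10 genes. Deep barcodes of no state had 459.6, 427 and 453 CPM of them in Types I, II and III, above the epiblast level of the same library. Barcodes outside the depth and mitochondrial limits had 2788, 2149.9 and 1529.9 CPM, between the TE and visceral endoderm levels. No comparison uses these barcodes, and which cells they come from was not tested.

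In 3 cases the ratio of CPM + 1 pointed in different directions in different libraries, and the difference between libraries was not tested. For Col4a2 in visceral endoderm over early PrE the log2 ratio was -0.41 and -0.34 in Types I and II and 0.033 in Type III, whose visceral endoderm has 19 barcodes. For Lama1 in TE over epiblast it was -0.020, 0.14 and -0.39, at levels of a few CPM. For Lama5 in visceral endoderm over TE it was 0.32, 0.0072 and -0.023.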

How the results depend on the processing

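Called members by comparison were 10 (early PrE over epiblast), 10 (visceral endoderm over epiblast), 9 (visceral endoderm over early PrE), 8 (TE over epiblast), 9 (early PrE over TE) and 10 (visceral endoderm over TE). Leaving out 1 library gave 9 to 10, 10 to 10, 4 to 9, 7 to 8, 9 to 9 and 8 to 10 members, and 7368 to 9984, 7320 to 10765, 247 to 3192, 5371 to 7943, 5713 to 8175 and 5474 to 9275 genes. The comparison between the endoderm states is therefore the least certain: without the library block, which pairs the states of 1 library, it called 5 members and 1850 genes instead of 9 and 2789. Its gene count was 4746 with all limits halved and 1778 with barcodes thinned to 10000 UMIs. Thinning also gave 5112 genes for TE over epiblast and 5082 for early PrE over TE. Plain library totals moved the share of called genes that were higher from 46.8% to 73.2% for TE over epiblast, from 52.7% to 38.4% for early PrE over TE and from 52.1% to 39.8% for visceral endoderm over TE. Of 900 alternative values of a member's fold change, 851 kept direction and call, 34 lost the call, 6 gained one and 9 changed sign. The sign changes were Col4a1 (0.13) and Col4a2 (0.12) in visceral endoderm over early PrE with limits halved, Lama1 in TE over epiblast with limits doubled (0.96), Lamc1 there without Type II (-0.093), and Lama5 in early PrE over TE: -0.19 to 0.021 with 1 library left out (0.021 without Type III), 0.062 without Pou5f1 barcodes, 0.039 with limits doubled, 0.45 thinned and 0.013 without shared barcodes. The cause was not tested. Lama5 in visceral endoderm over TE lost its call in 7 alternatives, and in early PrE over epiblast also with limits halved (0.09, adjusted p = 0.37). Leaving out shared barcodes gave 3 differences between libraries instead of 0, and doubling all limits gave 4. Leaving out shared barcodes, and adding sums of 5 to 19 barcodes, were chosen after seeing the data.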
